A study of Bos taurus with 30 samples.

Results

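HOX genes set position along the body axis in the embryo, and their clusters also encode a few miRNAs, short RNAs that guide the silencing machinery to matching mRNAs. The 5 measured here are bta-miR-10b, bta-miR-10a, bta-miR-196a, bta-miR-196b and bta-miR-615, chosen by name among the 1030 bovine miRNAs of the deposited table. miR-10a and miR-10b share a seed, the stretch that pairs with targets, and differ at a single central base. Both have HOX mRNAs among their known targets. miR-196a and miR-196b also share a seed and are known for repressing posterior HOX genes, HOXB8 above all. By RefSeq's gene annotation of ARS-UCD2.0, MIR10B lies within the bounds of HOXD4 and MIR10A within those of HOXB3, next to HOXB4. MIR196A-1 lies within HOXB9, MIR196A-2 between HOXC9 and HOXC10, MIR196B between HOXA10 and HOXA9, and MIR615 within HOXC5. All 4 HOX clusters are thus represented, and miR-196a can come from either of 2 genes in different clusters.

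The miRNAs were sequenced in the testes of 30 Holstein-Friesian bull calves aged 12 weeks, to ask whether feeding in early life changes testis miRNAs. From 2 weeks of age, 15 calves on the High diet drank 10 L daily holding 1.5 kg of milk replacer and had concentrate without limit, to gain 1.0 kg a day. The 15 calves on the Moderate diet drank 4 L daily holding 0.5 kg of milk replacer and had 0.5 kg of concentrate, to gain 0.5 kg a day. Whole testis was used, so fewer cells of a type and less of an miRNA per cell cannot be told apart. Libraries are named by diet and replicate number, and miRNAs without the prefix bta. A level is the deposited value, CPM after TMM scaling, which adjusts each library's size by a trimmed mean of log ratios over miRNAs. A share is a fraction of all miRNA reads of a library, in percent or in ppm (1 ppm is 0.0001%).

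Depth ran from 6.0003 to 19.98 M reads, with 24 libraries at up to 10.3 M and 6 (4 High, 2 Moderate) at 16.7 M or more. Diet was taken from the diet characteristic, which the sample titles contradict for 18 of the 30 libraries, so each diet comparison was also made with the title diet and in the 12 libraries whose labels match. Moderate replicate 5 stood apart: miR-10b took 84.8% of its reads, its TMM scaling raised all its levels, and comparisons are given with and without it where it matters. Its red blood cell markers summed to 7927, against at most 1870 in the other Moderate libraries and 3606 under High. Its gonadal (1893), endothelial (5125), fibroblast (2620) and striated muscle (3.81) lists lay below every other library. So did its spermatogonia (5301) and meiotic and later germ cell (22.8) lists, and the part of all these in its miR-10b share was not tested. The gonadal miR-202 was at 2335 ± 211 under High and 2315 ± 549 under Moderate (SD, n = 15 each). The meiotic and later germ cell list (miR-34b, miR-34c and miR-449) summed to 90.5 to 265 under High and 22.8 to 185 under Moderate. Without Moderate replicate 5 the lowest Moderate sum was 41.5. In limma 2 of its 3 tested members rose at an adjusted p under 0.05, where 2.33% of all 387 tested miRNAs did. Of the fixed marker lists for spermatogonia, smooth muscle, endothelium, red blood cells, leukocytes, epithelium, striated muscle and fibroblasts, no tested member passed in limma with all 30 libraries. When Moderate replicate 5 was left out, 1 leukocyte and 1 striated muscle marker rose and 1 fibroblast marker fell. In that fit 45 of all 385 tested miRNAs passed in either direction (11.7%). The liver marker miR-122 was at 0 to 2.84 under High and 0 to 0.476 under Moderate.

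The HOX cluster miRNAs ranged from the most abundant miRNA of the testis to one at the detection limit. miR-10b had a median share of 43.6% over the 30 libraries, against 0.115% for miR-10a, 4.97 ppm for miR-196a, 0.404 for miR-196b and 0.144 for miR-615. By median share, miR-10b stood 378-fold above miR-10a, miR-10a 232-fold above miR-196a, and miR-196a 12.3-fold above miR-196b. The order from miR-10b through miR-10a and miR-196a to miR-196b was the same in all 30 libraries. The last neighbours did not separate: miR-196b was above miR-615 in 24 libraries, equal in 2 and below in 4. Summed over libraries, miR-10b supplied 99.66% of the reads of the 5. miR-10b ranked first of all miRNAs in every library, while miR-10a ranked between 19 and 69 and miR-196a between 194 and 381.

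**Figure D1:**
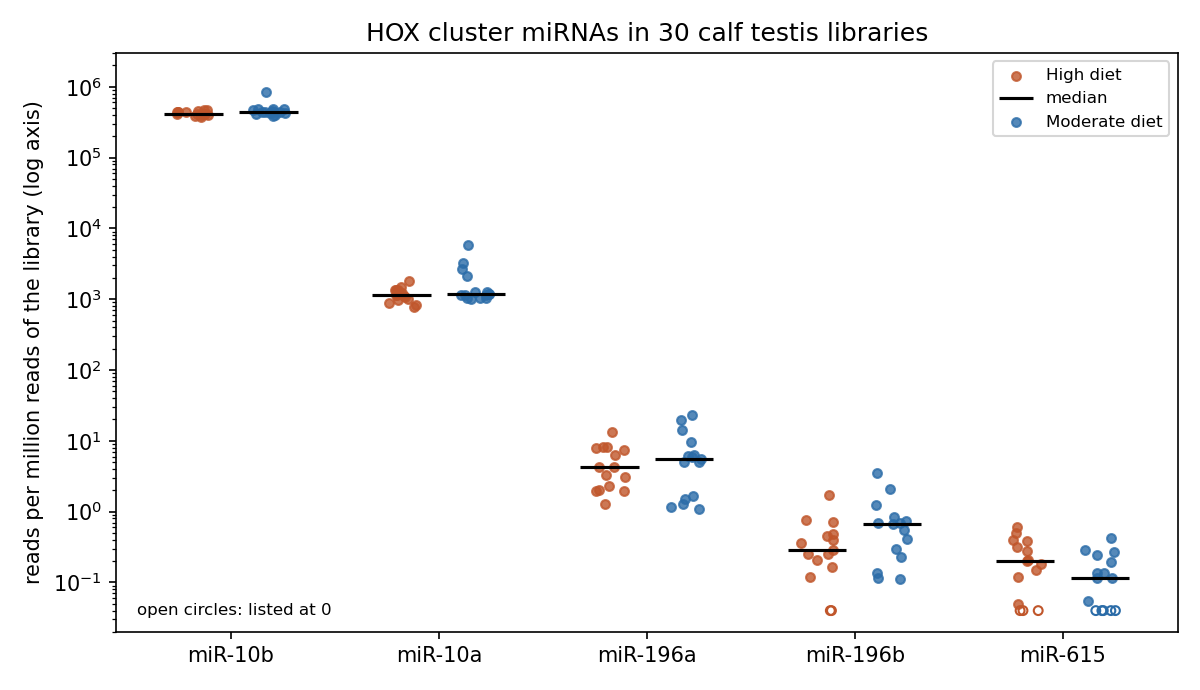
Share of each HOX cluster miRNA in ppm of the reads of a library (log axis), by diet. Each point is 1 library, black bars are medians over 15 libraries, and open circles are libraries in which the miRNA is listed at 0. The diets overlap for all 5 miRNAs; Moderate replicate 5 stands apart for miR-10b (84.8% of reads) and 4 Moderate libraries do for miR-10a (0.214% to 0.577%).

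miR-10b, the dominant testis miRNA here, did not pass the test for diet. Its level under High was lowest at 301820, with a median of 383607 and a highest of 487889. Under Moderate it ran from 331524 through a median of 444359 to 3583839, the last in Moderate replicate 5. The ranges overlapped, with 13 of 15 High libraries below the Moderate median and 4 Moderate libraries above every High library. Mean levels were 394068 ± 49546 under High and 645909 ± 815232 under Moderate (SD, n = 15 each), and the latter was 436057 ± 65908 without Moderate replicate 5 (n = 14). The log2 difference, High minus Moderate, was -0.34 (standard error 0.20, 95% confidence interval -0.76 to 0.07, adjusted p = 0.348 in limma), and without that library -0.14 (-0.29 to 0.01, adjusted p = 0.192 in limma). On recovered reads it was -0.86 in edgeR (adjusted p = 0.0707), -0.14 there without that library, and -0.13 in DESeq2 (adjusted p = 0.309), which had replaced that library's count. In its share, miR-10b took 37.0% to 46.9% of the reads under High and 39.1% to 49.0% in the 14 Moderate libraries other than replicate 5. The difference in mean share was -4.81 percentage points (permutation p = 0.0352, 0.106 adjusted over 6 share tests) and -2.10 without that library (permutation p = 0.0709, 0.120 adjusted).

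Since miR-10b holds so much of each library, its ratio to all other miRNA reads was also compared. There were 0.73 ± 0.09 miR-10b reads per other read under High (range 0.59 to 0.88) and 0.80 ± 0.10 under Moderate without replicate 5 (0.64 to 0.96), in which the ratio was 5.60. The mean log2 ratio differed by -0.31 (permutation p = 0.0353, 0.141 adjusted over 4 ratios), and by -0.12 without replicate 5 (permutation p = 0.0712, 0.222 adjusted). The miR-10b difference with all 30 libraries thus rested in large part on 1 library, and the 14 others kept the lower mean under High without passing.

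miR-10a, from the HOXB cluster, was high in a few Moderate libraries. Its level under High ran from 630 through a median of 1071 to 1782, and under Moderate from 909 through 1148 to 5349. The medians were close, but 5 Moderate libraries lay above every High library: replicates 2 (2087), 4 (3362), 5 (5349), 7 (4881) and 9 (2980). The other 10 Moderate libraries lay within the High range. Replicate 5 belongs to this group on the deposited scale but not by share of all reads. Its miR-10a share of 0.127% was 1.12-fold of the High median, in a library where miR-10b took 84.8% of reads. Among reads other than miR-10b, the mean of miR-10a under Moderate was 0.354% with replicate 5 and 0.319% without it. Replicate 5 held 11246 miR-10a and 7534706 miR-10b reads in 8.88 M. Among reads other than miR-10b, it thus lay above the mean of the other Moderate libraries and above every High library. Under High the mean by this measure was 0.203% and the highest library 0.319%. By share, replicate 7 stood highest at 0.577% (95% Wilson interval 0.572% to 0.583%), followed by replicates 4 (0.326%), 9 (0.268%) and 2 (0.214%), against a highest share of 0.178% under High, in High replicate 4. This interval reflects counting error alone: PCR copies were not told apart.

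In miR-10a reads as a percentage of miR-10b reads, a measure that no scaling factor touches, the same 4 Moderate libraries stood out. The ratio was 1.42% in replicate 7, 0.742% in replicate 4, 0.549% in replicate 9 and 0.481% in replicate 2. In the other 11 Moderate libraries it was 0.149% to 0.296%, and under High 0.203% to 0.404%. Because miR-10a and miR-10b differ at a single base, a small part of misread or misassigned miR-10b could count as miR-10a; how such reads were assigned is not stated in the labels, and its part in miR-10a was not tested. The lowest ratio, 0.149%, was in Moderate replicate 5, the library richest in miR-10b.

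**Figure D2:**
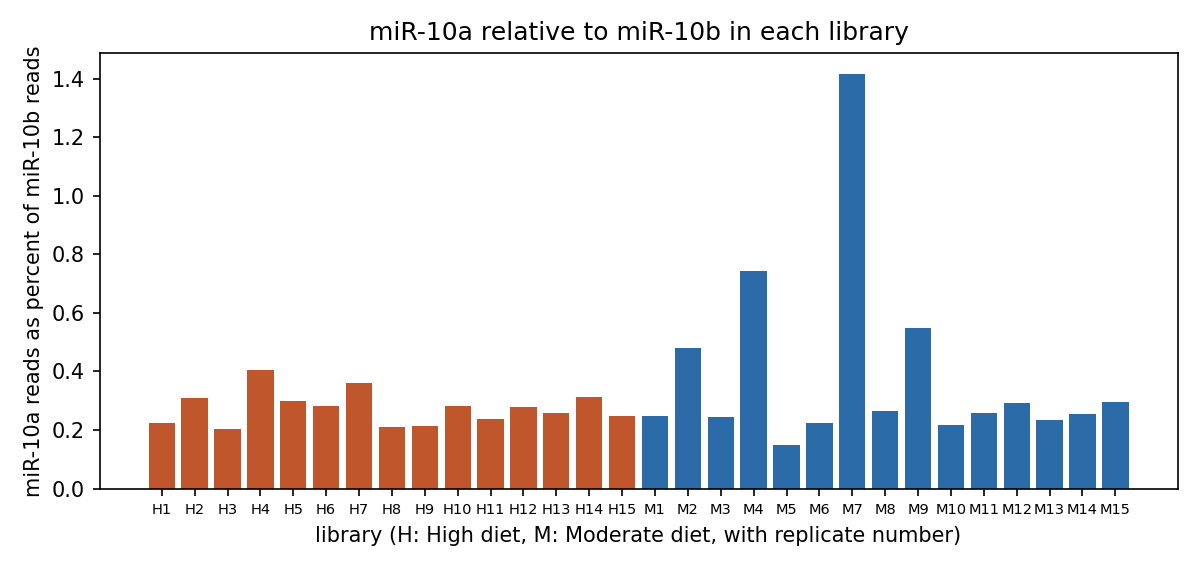
miR-10a reads as a percentage of miR-10b reads in each of the 30 libraries (bars from 0; orange High, blue Moderate). Moderate replicates 2, 4, 7 and 9 lie between 0.481% and 1.42%, above all High libraries, and Moderate replicate 5 is lowest at 0.149%.

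Mean miR-10a levels were 1090 ± 294 under High and 1968 ± 1482 under Moderate (SD, n = 15 each). The log2 difference was -0.61 (standard error 0.24, 95% confidence interval -1.09 to -0.12, unadjusted p = 0.0152, adjusted p = 0.112 in limma), so that miR-10a did not pass, and without Moderate replicate 5 it was -0.48 (adjusted p = 0.124 in limma). Leaving out each library in turn gave adjusted p between 0.0835 and 0.182 in limma. On the recovered reads it passed in both count tests, with log2 differences of -0.92 in edgeR (adjusted p = 0.0296) and -0.90 in DESeq2 (adjusted p = 0.0134). That edgeR fit used a filter on low values. Without the filter edgeR gave -0.85 (adjusted p = 0.0788), where 0 of 838 miRNAs passed. Without Moderate replicate 5, miR-10a missed the threshold in edgeR with the filter (-0.65, adjusted p = 0.0522) and passed in DESeq2 (-0.65, adjusted p = 0.0352). With the titles' diet the log2 difference was -0.09 (adjusted p = 0.981 in limma). The mean share differed by -0.0589 percentage points (permutation p = 0.0739, 0.147 adjusted over 6 share tests), whereas the difference in medians was -0.00499 percentage points (permutation p = 0.478). Without replicate 7 the mean share differed by -302 ppm, against -589 with it. The gap thus lay in the means, with a few high Moderate libraries, more than in the medians (0.113% under High and 0.118% under Moderate). The spread itself was not shown to differ: the mean absolute deviation of log2 levels from the group's median was 0.300 under High and 0.615 under Moderate (permutation p = 0.155, a test chosen after the values were seen; 0.310 adjusted over 4 measures).

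The 4 Moderate libraries with the highest miR-10a share differed among themselves in depth, title and marker levels. Replicates 2 and 9 were the 2 deeply sequenced Moderate libraries (19.2 and 18.6 M reads), while replicates 4 and 7 had 9.92 and 7.28 M. The titles of replicates 2 and 4 give the High diet and those of 7 and 9 the Moderate diet. The 5 epithelial miRNAs summed to 13.5, 18.9, 22.5 and 21.99 in replicates 2, 4, 7 and 9, within the 10.7 to 24.8 seen under Moderate and partly above the 11.5 to 17.4 under High, and their part in the miR-10a level was not tested. The germ cell list summed to 185, 89.8, 78.7 and 48.7 in the same order.

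Of the 3 members abundant enough for limma (a level of at least 1 in at least 15 libraries), 0 passed an adjusted p of 0.05 and 1, miR-10a, had an unadjusted p under 0.05. Unadjusted p in limma lay under 0.05 for 82 of all 387 tested miRNAs. Over all 387 miRNAs tested, 4.91% passed in limma, 2.58% lower and 2.33% higher under High (11.7% without Moderate replicate 5, where again 0 of the 3 did). In edgeR 1 of 3 members passed where 9.52% of 378 miRNAs did, and in DESeq2 1 of 4 with an adjusted p passed where 10% of 480 did. All 3 members had a log2 difference below 0, with a median of -0.36, where the median of all 387 was 0.03.

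**Figure D3:**
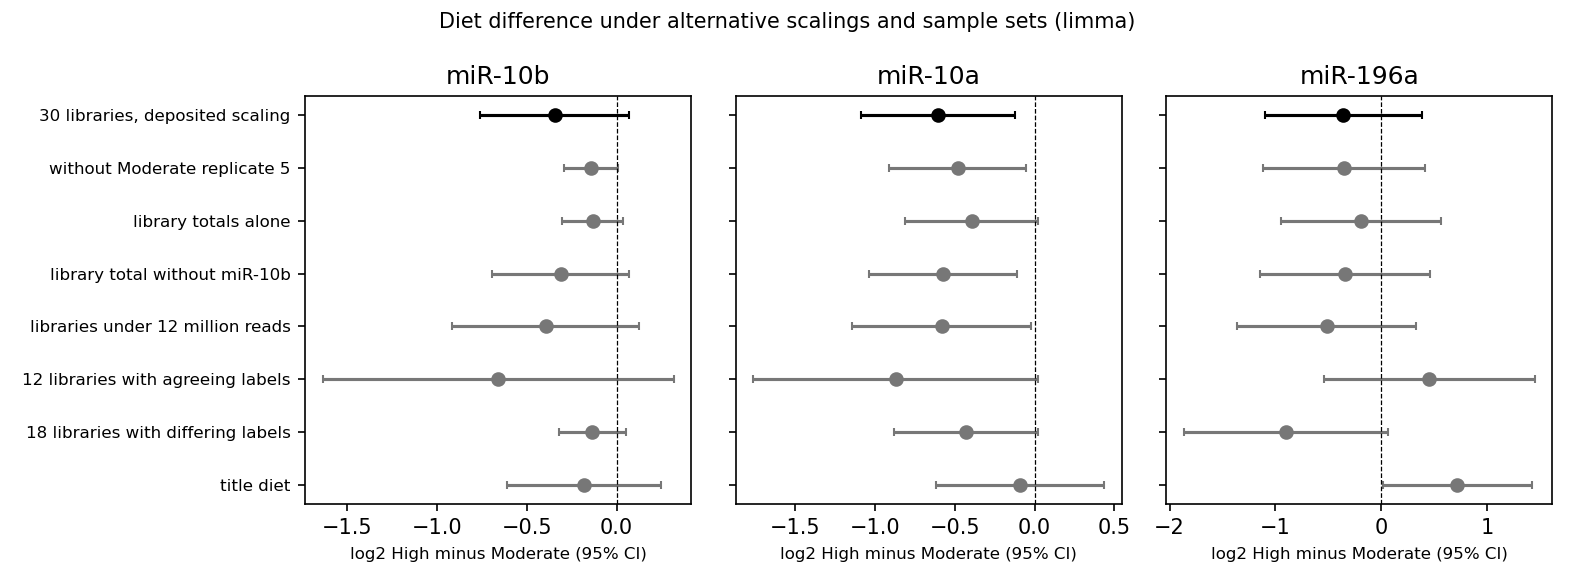
Log2 difference, High minus Moderate, of miR-10b, miR-10a and miR-196a in limma, with 95% confidence intervals, for 30 libraries (black) and for alternative scalings and sets of libraries (grey). miR-10b lies below 0 with intervals that cross it in every row, miR-10a lies below 0 with intervals that exclude it in 4 of 8 rows (before adjustment over miRNAs), and miR-196a changes sign with the title diet and in the 12 libraries with matching labels.

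miR-196a, which targets HOXB8 and has gene copies in the HOXB and HOXC clusters, was scarce and varied widely within both diets. Its level ran from 1.11 through a median of 3.84 to 13.4 under High, and from 1.14 through 5.15 to 21.9 under Moderate. Behind these levels lay 8.5 to 265.5 reads per library, with fractions of a read in 20 libraries, so the split of shared reads is uncertain. The 4 libraries above 10 were Moderate replicates 11 (21.9), 10 (20.9) and 1 (13.3) and High replicate 4 (13.4). None is among the 4 richest in miR-10a, though High replicate 4 had the highest miR-10a level and share under High (1782 and 0.178%). Mean miR-196a levels were 4.72 ± 3.29 under High and 7.20 ± 6.58 under Moderate (SD, n = 15 each). The log2 difference was -0.36 (standard error 0.36, 95% confidence interval -1.10 to 0.39, adjusted p = 0.609 in limma), or -0.21 without Moderate replicate 11 (adjusted p = 0.748 in limma). The sign turned with the label used, to 0.72 with the title diet (unadjusted p = 0.0453, adjusted p = 0.981 in limma) and to 0.46 in the 12 libraries with matching labels (adjusted p = 0.649 in limma). Its SD of log2 levels ranked 7th of 387 miRNAs under High (0.89) and 2nd under Moderate without replicate 5 (1.25), where the medians over all tested miRNAs were 0.23 and 0.26.

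miR-196b, from the HOXA cluster, was near the detection limit. It had 0 to 34 reads under High (median 3) and 1 to 40 under Moderate (median 5), and 14 of 30 libraries had no more than 3 reads. Its highest levels were 3.64 in Moderate replicate 4, 2.04 in Moderate replicate 2, 1.71 in High replicate 4 and 1.38 in Moderate replicate 9, the 4 libraries at or above 1. Moderate replicates 2 and 9 and High replicate 4 were deeply sequenced (19.2, 18.6 and 19.9 M reads), while Moderate replicate 4 had 9.92 M. All 4 were among the 6 libraries with a miR-10a level of at least 1500, a bound chosen after the values were seen. The exceptions were Moderate replicates 7 and 5, where a high miR-10a level came with 1 read each of miR-196b. The mean share was 0.411 ± 0.423 ppm under High and 0.821 ± 0.907 under Moderate (permutation p = 0.122, 0.147 adjusted over 6 share tests). Without Moderate replicate 4 the difference went from -0.411 to -0.217 ppm. In edgeR without a filter on low values, the log2 difference was -1.05 (unadjusted p = 0.0193, adjusted p = 0.221), in a fit where 0 of 838 miRNAs passed (0%) and 118 had an unadjusted p under 0.05. In DESeq2 it was -1.09 (adjusted p = 0.130). In the 18 libraries whose labels conflict, the share differed by -0.790 ppm (9 against 9, exact permutation p = 0.00378, 0.0227 adjusted), while in the 12 with matching labels it differed by 0.158 (6 against 6, exact permutation p = 0.597). Whether the 18 and the 12 differ from each other was not tested.

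miR-615, which lies within HOXC5, was hardly detected. It had 0 to 6 reads per library under High and 0 to 8 under Moderate, was listed at 0 in 3 and 5 libraries, and exceeded 3 reads in 5 of 30. A count of 0 still allows a share of 0.302 to 0.500 ppm in those 8 libraries, counting up to 3 reads. The mean share was 0.226 ± 0.187 ppm under High and 0.131 ± 0.130 under Moderate (permutation p = 0.119, 0.147 adjusted), so it was the 1 member with a higher mean under High, and the difference did not pass.

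**Figure D4:**
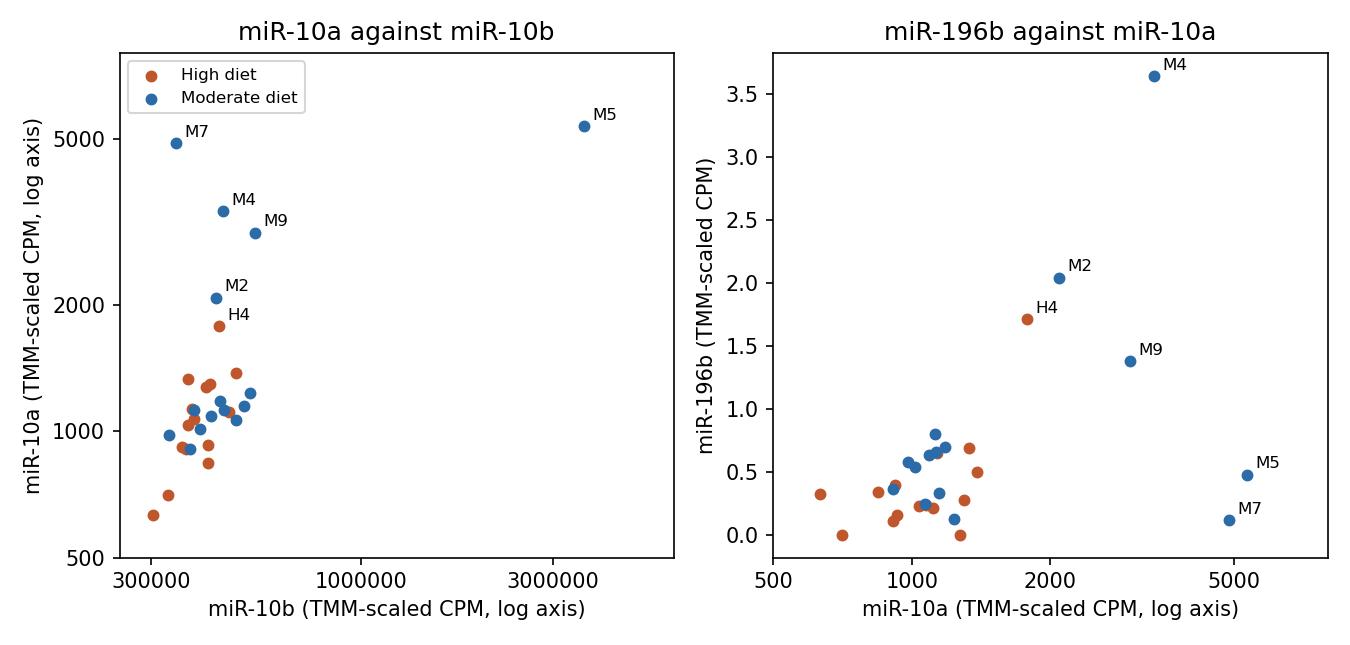
Levels of miR-10a against miR-10b (left, both axes log) and of miR-196b against miR-10a (right, log horizontal axis) in 30 libraries, in TMM-scaled CPM; M and H with a number name the replicate. M5 stands apart in miR-10b, miR-10a is high in M2, M4, M7 and M9 with miR-10b no higher than 543027, and miR-196b is above 1 in M2, M4, M9 and H4 but not in M7.

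Whether members varied together from calf to calf was examined over 10 pairs on log2(level + 0.5). All levels of a library share its depth and scaling. miR-10b and miR-10a, which lie in different clusters, correlated over 30 libraries (Pearson r = 0.59, permutation p = 0.00155, 0.0155 adjusted; Spearman rho = 0.56, permutation p = 0.00163, 0.0163 adjusted). The linear relation rested on the extremes, with r = 0.34 (permutation p = 0.0687) without Moderate replicate 5 and r = 0.26 (permutation p = 0.186) without the 2 libraries farthest in miR-10b, where rho was 0.51 and 0.46. Within the High diet r was 0.72 (n = 15, permutation p = 0.00270). Within the Moderate diet it was 0.53 (n = 15, permutation p = 0.0454, 0.299 adjusted), and without replicate 5 it was 0.04 (n = 14, permutation p = 0.886). For those 14 libraries rho was 0.36 (permutation p = 0.201), against 0.66 within High. miR-196a and miR-196b had r = 0.41 (permutation p = 0.0244, 0.0743 adjusted) and rho = 0.51 (permutation p = 0.00461, 0.0231 adjusted), with r = 0.77 within High (permutation p = 0.000470) and r = 0.17 within Moderate (permutation p = 0.554). miR-10a and miR-196b had r = 0.44 (permutation p = 0.0171, 0.0743 adjusted) and rho = 0.41 (permutation p = 0.0248, 0.0826 adjusted). In the 24 libraries under 12 M reads, this pair had r = 0.31 (permutation p = 0.132, 0.264 adjusted) and rho = 0.25 (permutation p = 0.233). Without the 2 of all 30 libraries farthest in miR-10a, Moderate replicates 5 and 7, r was 0.78 (permutation p = 2e-05). These 2 had high miR-10a with 1 read each of miR-196b, so leaving them out favoured a higher r and is no separate support. Within the diets r was 0.58 for High (permutation p = 0.0228) and 0.27 for Moderate (permutation p = 0.332). With so few reads of miR-196b, these relations describe a handful of libraries. No other pair passed after adjustment.

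Ratios between members did not pass for diet. The mean log2 ratio of miR-10b to miR-10a was 8.54 ± 0.29 in the 15 High and 8.27 ± 0.83 in the 15 Moderate libraries (permutation p = 0.274, 0.328 adjusted). Without Moderate replicate 7 the difference of 0.26 became 0.11. That of miR-196a to miR-196b, on reads plus 0.5, was 3.61 ± 0.84 and 2.94 ± 1.58 (permutation p = 0.159, 0.319 adjusted). That of miR-10a to miR-196b was 11.71 ± 1.12 and 11.27 ± 1.31 (permutation p = 0.328, 0.328 adjusted), and its difference ran from 0.26 without High replicate 14 to 0.70 without Moderate replicate 7. This last ratio turned to -1.16, High minus Moderate, with the title diet and passed there (permutation p = 0.00577, 0.0231 adjusted over 4 ratios), against 0.44 by the diet characteristic, so its direction depends on the label used.

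The relatives of miR-10 outside the HOX clusters are miR-99a, miR-99b, miR-100, miR-125a and miR-125b, which lie in let-7 clusters. Of their 6 measured forms, 0 passed in limma, where 4.91% of all 387 tested miRNAs did. The limma p before adjustment was below 0.05 for 1 of the 6, against 82 of the 387. Whether these counts differ from those of all tested miRNAs was not tested. The median log2 difference of the 6 was -0.05. The relatives summed to 7636 to 10812 under High and 7378 to 11685 under Moderate without replicate 5, which stood at 24913. In Moderate replicates 2, 4, 7 and 9 they summed to 9993, 7898, 10643 and 7378, within or near the range of the others. The relatives were thus not high in these libraries, which had the highest miR-10a shares. In Moderate replicate 5, which had the highest miR-10a level (5349), the relatives were also highest.

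Among the tested miRNAs, the ones most like miR-10b over 30 libraries by Spearman's rho were miR-483 (0.66), which lies in the imprinted IGF2 gene, miR-342 (0.64) and miR-143 (0.59), abundant in smooth muscle. Without Moderate replicate 5 their rho was 0.63, 0.61 and 0.56, at ranks 2, 3 and 6 among the miRNAs most like miR-10b. For miR-10a they were miR-2299-5p (0.62), miR-10b (0.56) and miR-433 (0.48). Without Moderate replicate 5 the values were 0.58, 0.51 and 0.43, at ranks 4, 9 and 15 among the miRNAs most like miR-10a, so that their place rested on that library. For miR-196a they were miR-1249 (0.44), miR-331-5p (0.42) and miR-6526 (0.40), and without that library 0.47, 0.44 and 0.45. These values share library depth and scaling and are descriptions.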

How the data were processed

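Per the labels' protocols, testis RNA (Qiagen RNeasy Plus Universal) went into Illumina TruSeq small RNA libraries. FastQC 0.11.8, cutadapt 2.6, R 3.4 and edgeR 3.5 are named in the submitters' processing notes; no aligner, miRNA reference or build is given in the sources used. The authors deposited 1 table of 1030 miRNAs whose values are a normalized signal, not counts. Low values are whole multiples of 1 step per library, and dividing by it gave whole reads for 95.3% of 18379 values within 0.02 read; TMM factors of these reads were within 0.00535 (natural log) of the deposited scaling. Fractional reads occurred in 58 miRNAs.

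The main test was limma 3.58.1 (R 4.3.3) (trend option) on log2(value + 0.5), diet as the only term, over 387 miRNAs (15 or more libraries with a value of 1 or more), with Benjamini-Hochberg adjustment. The offset understates changes of low miRNAs. edgeR 4.0.16 quasi-likelihood and DESeq2 1.42.0 on the recovered reads, rounded, were alternatives. DESeq2 replaced the miR-10b count of Moderate replicate 5 as an outlier. Shares and ratios were compared with two-sided permutation tests (100000 resamples, or exact), and tests were run on simulated data. Replicates are numbered by accession and are not paired. That samples are separate calves rests on the different numbers in their titles. Named are the 5 members, the miR-10 relatives, marker lists and the 3 miRNAs nearest to each tested member by Spearman's rho. The planned naming of miRNAs by shared seed was not done. Members and lists were chosen with earlier results of these data known.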

Additional observations from a re-analysis of the deposited data

How the results depend on the processing

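For 23 results, 181 alternatives other than leaving out single libraries in turn were computed, of which 159 kept direction and side of the threshold. The differences of miR-10b (limma, share, and ratio to all other miRNAs) stayed below 0 and did not pass in any of them. miR-10a stayed below 0 in limma and passed only on recovered reads. It did so at -0.92 in edgeR with a filter on low values, -0.90 in DESeq2 and -0.65 in DESeq2 without Moderate replicate 5. In edgeR without the filter it did not pass (-0.85, adjusted p = 0.0788). The cause was not tested. With library totals alone, which moved the median log2 difference of all miRNAs from 0.03 to 0.21, miR-10b stood at -0.13, miR-10a at -0.39 and miR-196a at -0.19. With the title diet, several results changed sign: miR-196a in limma (0.72), the shares of miR-196a (3.88 ppm) and miR-196b (0.537), and the log2 ratios of miR-10b to miR-10a (-0.092), miR-196a to miR-196b (-0.27) and miR-10a to miR-196b (-1.16). In the 12 libraries with matching labels, miR-196a in limma (0.46), the shares of miR-196a (2.27) and miR-196b (0.158) and the ratio of miR-10a to miR-196b (-0.89) changed sign. In the 18 with conflicting labels, the share of miR-196b (-0.790) and the ratio of miR-10a to miR-196b (1.33) passed. In the 6 libraries of 12 M reads or more, the shares of miR-196a (1.19) and miR-615 (-0.0479) changed sign, where 4 against 2 libraries cannot reach an exact permutation p of 0.05. The cause of these changes was not tested.

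When each library was left out in turn, the share difference of miR-10b ranged from -53722 to -21027 ppm and that of the 5 members from -54357 to -21654, and both passed without Moderate replicate 14 or 15. The log2 ratio of miR-10b to all other miRNAs ranged from -0.35 to -0.12 and passed without Moderate replicate 15. All 3 were nearest to 0 without Moderate replicate 5. The miR-10a difference in limma ranged from -0.66 to -0.48, and the miR-10b difference from -0.39 to -0.14.

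The Pearson correlation of miR-10b and miR-10a no longer passed without Moderate replicate 5 (0.34), with library totals without miR-10b (0.54; 0.31 with replicate 5 left out as well) or in the libraries under 12 M reads (0.61, adjusted p = 0.0565), where that of miR-196b and miR-615 turned to -0.12. No paired analysis was possible because the labels give no replicate numbers that groups share. Depth limits miR-196b and miR-615, which had 3 reads or fewer in 14 and 25 of 30 libraries. Alternatives on deeper libraries, medians, combined settings and correlations by depth were chosen after seeing the data.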
